A study of Mus musculus with 6 samples.

Results

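The myogenic regulators *Myod1*, *Myf5*, *Myf6*, *Myog*, *Pax3*, *Pax7* and *Mef2c* were examined in tail tendons of WT and Mkx-/- mice, to ask whether they accompany the skeletal muscle genes that are found in this tissue. They were taken by symbol from the 44788 symbols of the count table, and all 7 were present. Bulk RNA-seq, which pools the RNA of every cell in the sampled tissue, was performed on 3 WT and 3 Mkx-/- libraries. All mice were of the C57BL/6 strain. The sample labels give an age of 3 weeks, whereas the study's text gives another age. The Mkx-/- animals were homozygous mutants of *Mkx*, a homeobox transcription factor of tendon. The labels give no other allele or agent for either group, and how the *Mkx* allele was made is not given in the sources used here. The labels do not say whether tendons of several mice were pooled, so the p-values measure the spread between these libraries.

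Skeletal muscle is built by a small set of transcription factors. *Pax3* and *Pax7* mark muscle progenitors, and *Pax7* also marks the satellite cells that lie beneath the basal lamina of muscle fibres and serve as stem cells. *Myf5* and *Myod1* commit these cells to muscle, *Myog* drives their fusion and differentiation, and *Myf6*, also called MRF4, is the member that is most characteristic of mature fibres. These 4 basic helix-loop-helix (bHLH) factors, the myogenic regulatory factors (MRFs), pair with E proteins and bind the E-box, CANNTG. MEF2 proteins act with them on muscle promoters, but *Mef2c* is also used by endothelial, smooth muscle, immune and cartilage cells. *Mkx* has been described as a transcriptional repressor that can restrain muscle differentiation in cultured cells.

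The libraries held 10835070 to 14160301 counts. *Mkx* had 1381 to 1825 counts in WT and 491 to 620 counts in Mkx-/- libraries (log2 fold change -1.60 ± 0.16 SE, adjusted p = 0.00183 in edgeR's quasi-likelihood test). The tendon markers *Tnmd*, *Fmod*, *Col1a1* and *Scx* were counted in every library. Levels were scaled with edgeR's TMM method and are given as normalized CPM, on which 1 count was worth 0.0703 to 0.0981 CPM depending on the library. A gene was called at a Benjamini-Hochberg adjusted p under 0.05 with a log2 fold change above 1 or below -1. Of 14550 genes with enough counts to test, 1.89% were called upregulated and 1.33% downregulated. An unadjusted p under 0.05 in edgeR was reached by 22.6% of them, with 1812 higher and 1476 lower in Mkx-/- libraries. Mkx-/- replicate 3 stood apart in smooth muscle genes, with 2548 counts of *Myh11* against 25 to 39 in the other libraries. WT replicate 3 was the only library with counts of the Y-linked gene *Ddx3y*, 301, and held 1 count of *Xist*, against 1289 to 1866 in the others.

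None of the 7 regulators was called in either direction, and only 1 could be tested in the fit across all genes. Of their 822 counts over the 6 libraries, 718 (87.3%) fell on *Mef2c*, 61 on the Pax genes and 43 on the 4 MRFs. This was *Mef2c*, and the other 6 are given as counts with intervals. The MRFs together had 3 counts in the WT libraries and 40 in the Mkx-/- libraries, most of them on *Myf6* and *Myod1*. *Pax3* had 6 to 15 counts in every library with overlapping groups, and *Pax7*, *Myf5* and *Myog* were at or under the floor of 3 counts per group. The unadjusted p of *Mef2c* was 0.558 in edgeR, and DESeq2, which also fitted only this member, did not call it. In a fit that kept every gene with at least 1 count, edgeR called 0 of the 7, and 2 of them, *Myf6* and *Myod1*, had an unadjusted p under 0.05, as did 15.9% of all genes in that fit.

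**Figure D1:**
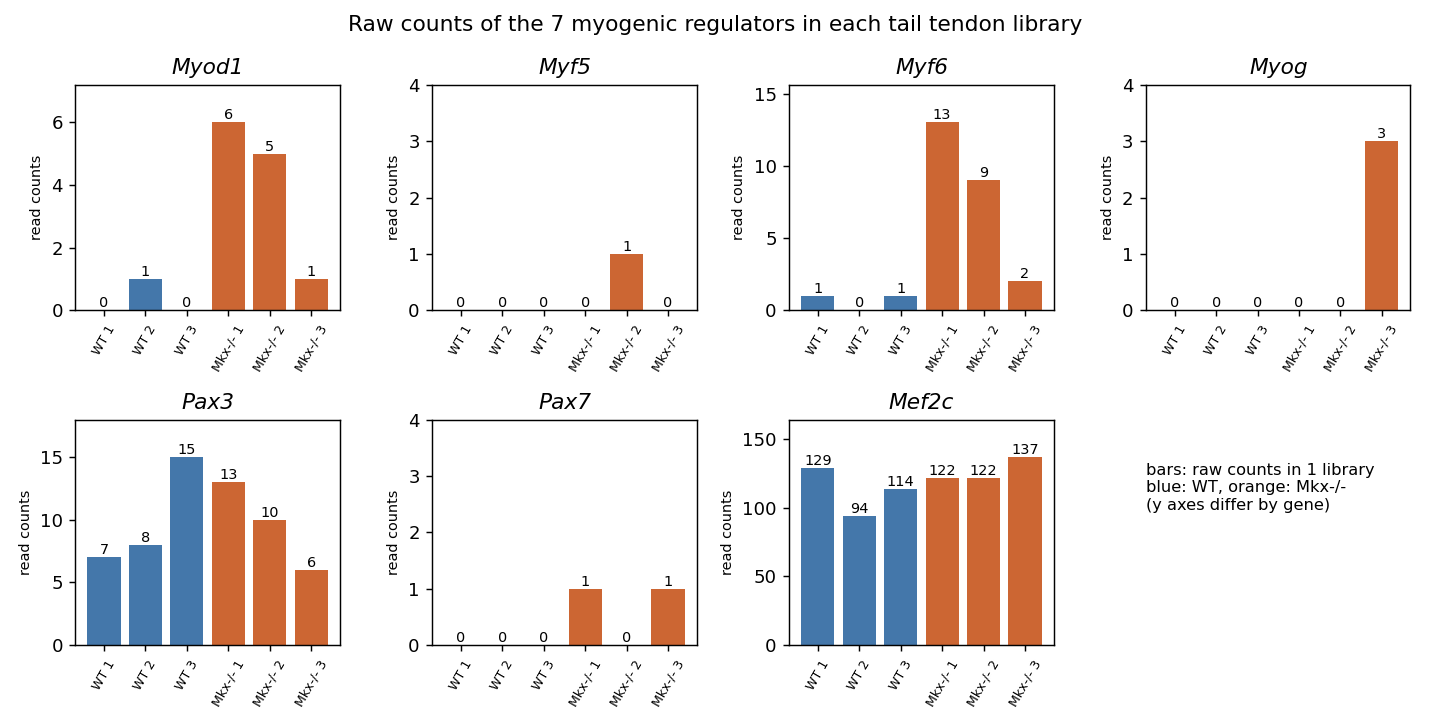
Raw read counts (y axis, different for each gene) of the 7 regulators in the 3 WT (blue) and 3 Mkx-/- (orange) libraries, 1 bar per library. *Mef2c* lies between 94 and 137 counts in every library, *Pax3* between 6 and 15, and the other genes at 13 counts or fewer.

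*Myf6* was the MRF with the most counts. It spans 106929916 to 106931785 of chromosome 10 in the mouse build mm9, on the minus strand. Its neighbour *Myf5* lies on the same strand from 106919964 to 106923190, with 6725 bases between them. No member overlaps another annotated gene. *Myf6* had 1, 0 and 1 counts in WT replicates 1, 2 and 3, and 13, 9 and 2 counts in Mkx-/- replicates 1, 2 and 3. Each Mkx-/- library thus lay above every WT library, although replicate 3 did so by a single count. Groups that did not overlap were common in these data, with 28.2% of the tested genes. *Myf6* was itself under the filter, and no such share was computed for genes with so few counts. The ratio of the summed normalized counts was 11.2, with a 95% interval of 2.79 to 98.1 that covers counting error only. An exact permutation test gave a two-sided p of 0.1, the smallest that 3 against 3 libraries allow. When every gene with at least 1 count was kept, the edgeR estimate for *Myf6* was 3.32 ± 1.0 SE on the log2 scale (adjusted p = 0.0511), and it was not called. In that fit 2.10% of 25777 genes were called upregulated and 1.25% downregulated.

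*Myod1*, which commits cells to the muscle lineage, lies on the plus strand of chromosome 7 from 53631844 to 53634462 in mm9. Its counts were 0, 1 and 0 in WT and 6, 5 and 1 in Mkx-/- tendons. WT replicate 2 and Mkx-/- replicate 3 had the same count, so the groups overlapped. The ratio was 11.2, with an interval for counting error of 1.66 to 480 and an exact permutation p of 0.2. In the fit that kept every counted gene, its log2 estimate was 3.10 ± 1.29 SE (edgeR adjusted p = 0.209).

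*Myf5* and *Myog* were at or near 0 throughout. *Myf5* had 1 count, in Mkx-/- replicate 2, and 0 in the other 5 libraries. *Myog*, at 136186581 to 136189124 of chromosome 1 in mm9 (plus strand), had 3 counts in Mkx-/- replicate 3 and 0 in the other 5 libraries. Those 3 counts came from the library with the smallest contractile gene level of the Mkx-/- group. A count of 0 in the WT group allows up to 3 counts, or 0.0848 CPM over the group, so a lower level was not detectable at this depth. No fold is given for *Myf5* or *Myog*, since both groups were at or under this floor.

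The stretch before the start of *Myog* is shown because the gene is the usual readout of MRF activity and gathered almost no reads here. RefSeq promoter windows of build GRCm38.p6 matched 4 of the 7 members, *Myog*, *Myf5*, *Pax7* and *Mef2c*, and not *Myod1*, *Myf6* or *Pax3*. The 250 bases before the start, on the plus strand at chr1:134289754-134290003, hold CANNTG in 2 places, in capitals, with 132 and 6 bases between the motif and the start. A match to CANNTG, which reads the same on both strands, was found in 66.2% of all 32851 windows of this length.
Myog: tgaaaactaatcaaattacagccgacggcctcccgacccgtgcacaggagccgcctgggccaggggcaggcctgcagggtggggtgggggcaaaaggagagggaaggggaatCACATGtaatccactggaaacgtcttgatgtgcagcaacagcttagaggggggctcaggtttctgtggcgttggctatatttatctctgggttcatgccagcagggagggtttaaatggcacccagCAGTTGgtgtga

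*Pax7* was nearly uncounted and *Pax3* had overlapping groups. *Pax7*, the satellite cell factor, spans 139292977 to 139389445 of chromosome 4 in mm9 (minus strand). It was at 0 in all 3 WT libraries and had 1, 0 and 1 counts in Mkx-/- tendons, under the floor in both groups. *Pax3*, at 78097842 to 78193709 of chromosome 1 (minus strand), had 7, 8 and 15 counts in WT and 13, 10 and 6 counts in Mkx-/- libraries. The groups overlapped over nearly their whole range. The means were 0.846 ± 0.329 CPM for WT and 0.790 ± 0.365 CPM for Mkx-/- (SD, 3 libraries each). The ratio was 0.905, with an interval for counting error of 0.524 to 1.56 and an exact permutation p of 0.7.

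*Pax3* is also used by melanocytes and other neural crest derivatives, so their markers were read beside it. Of 8 melanocyte markers, *Tyr* was at 0 in all libraries, *Dct* had 0 to 2 counts and *Mlana* 0 or 1. The summed level of this list was 29.2 to 42.0 CPM in WT and 17.4 to 25.1 CPM in the knockout, most of it from *Mitf*, *Kit* and *Ednrb*, which other cells use too. The 8 Schwann cell markers summed to 8120 to 10700 CPM in WT and 12600 to 23400 CPM in Mkx-/- libraries, and *Sox10* stood at 33.9, 61.5 and 77.3 CPM in Mkx-/- replicates 1, 2 and 3. *Pax3* was highest in replicate 1 and lowest in replicate 3 of that group, the reverse of *Sox10*. The part of these cells in the *Pax3* counts was not tested.

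*Mef2c*, on the plus strand of chromosome 13 from 83643033 to 83806684 in mm9, was the regulator with a firm level in all libraries. Its counts were 129, 94 and 114 in WT and 122, 122 and 137 in Mkx-/- tendons, or 10.2, 9.23 and 9.13 CPM against 11.2, 8.57 and 10.9 CPM. The Mkx-/- libraries held both the highest and the lowest value, so the groups overlapped. The means were 9.51 ± 0.570 and 10.2 ± 1.42 CPM (SD, n = 3 each), and the difference was 0.10 ± 0.16 SE on the log2 scale (edgeR adjusted p = 0.770). The 95% interval of the log2 fold change, -0.27 to 0.47, leaves out a doubling as well as a halving of the level. Of the tested genes, 44.1% had a lower mean level.

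Markers of cell types that use *Mef2c* varied between libraries. The 12 endothelial markers summed to 61.8 to 79.7 CPM in WT and to 77.1, 84.1 and 143 CPM in Mkx-/- replicates 1, 2 and 3. The 9 smooth muscle and pericyte markers summed to 257 to 366 CPM in WT and to 340, 360 and 1260 CPM in the same Mkx-/- libraries. The 11 leukocyte markers were lower, at 572 to 632 CPM for WT against 389 to 478 CPM for Mkx-/-. None of these lists had a marker at 0 in all 6 libraries. *Mef2c* in Mkx-/- replicate 3, 10.9 CPM, was no higher than in replicate 1, 11.2 CPM, while smooth muscle genes were far higher in replicate 3. The 9 cartilage markers summed to 547 to 1090 CPM in WT and 708 to 1190 CPM in Mkx-/- libraries, most of it from *Col2a1*. *Col2a1* was not called (log2 fold change -0.08, edgeR adjusted p = 0.905). Of the 7 cartilage markers that could be tested, 5 were higher and 2 lower. Only *Acan* was called upregulated by edgeR (log2 fold change 2.20, edgeR adjusted p = 0.00380), and DESeq2 called *Sox9* besides. *Col10a1* had 8 to 29 counts in every library. The part of each cell type in the *Mef2c* level was not tested. In a bulk sample, fewer cells of a type and less RNA per cell cannot be told apart.

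Levels were compared between genes as CPM per kilobase of exon. In WT, *Mef2c* stood at 1.29 ± 0.0771 on this scale (SD, n = 3), *Pax3* at 0.137 ± 0.0532, *Myf6* at 0.0424 ± 0.0368 and *Myod1* at 0.0176 ± 0.0306, with *Myf5*, *Myog* and *Pax7* at 0. The ranges of *Myf6* and *Myod1* overlapped, and those of *Mef2c*, *Pax3* and *Myf6* did not. In Mkx-/- tendons the order was *Mef2c* at 1.38 ± 0.192, *Myf6* at 0.529 ± 0.414, *Myod1* at 0.176 ± 0.127 and *Pax3* at 0.128 ± 0.0591, followed by *Myog* at 0.0536 ± 0.0928, *Myf5* at 0.0112 ± 0.0195 and *Pax7* at 0.00972 ± 0.00848. Here the ranges of all neighbours below *Mef2c* overlapped. *Myf6* was above *Pax3* in each Mkx-/- library, by the least in replicate 3 with 0.127 against 0.0769. For comparison, *Acta1*, the actin of skeletal muscle fibres, reached 34.8 ± 31.8 in WT and 287 ± 176 in Mkx-/- tendons on the same scale.

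*Mef2c* was not the most abundant MEF2 gene of this tissue. *Mef2d* stood at 16.1 ± 2.83 and *Mef2a* at 8.68 ± 0.997 CPM per kilobase of exon in WT (SD, n = 3 each), and *Mef2b* at 0.295 ± 0.00317. The ranges of these genes and *Mef2c* did not overlap in either group. Neither *Mef2a* nor *Mef2d* was called, with log2 fold changes of -0.18 (95% interval -0.47 to 0.12) and 0.23 (-0.14 to 0.60). Their edgeR adjusted p were 0.463 and 0.452, and DESeq2 called neither.

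**Figure D2:**
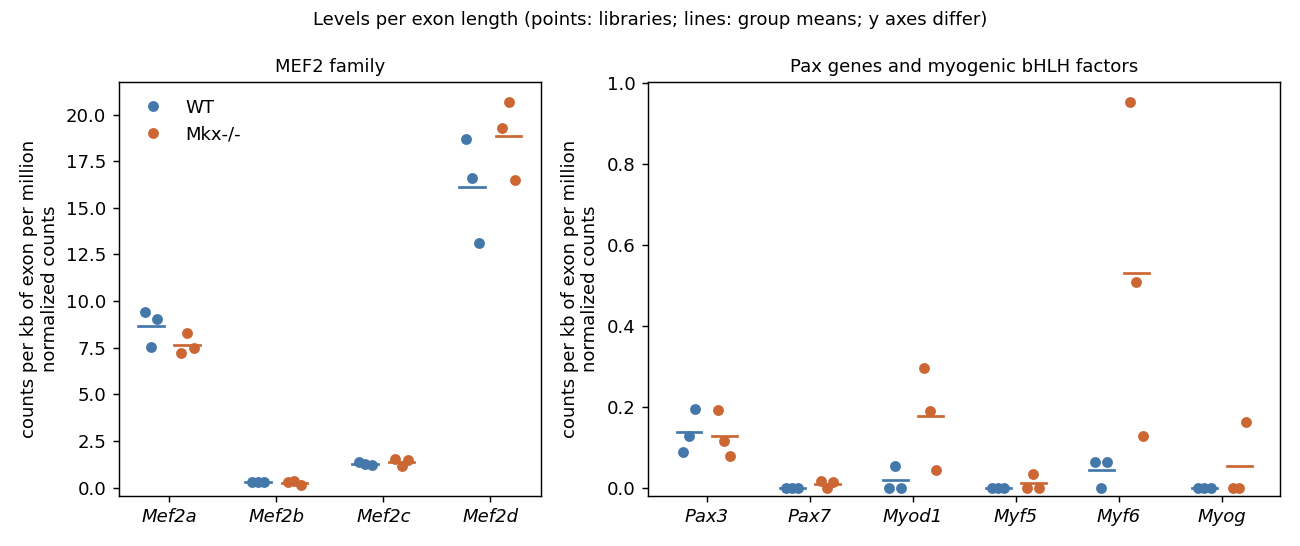
Normalized CPM per kilobase of exon (y axis, different for each panel) of the MEF2 genes, the Pax genes and the MRFs in WT (blue) and Mkx-/- (orange) libraries, with points for libraries and lines for group means. *Mef2d* and *Mef2a* lie above *Mef2c* in all libraries, and *Myf6* and *Myod1* are spread widely among the Mkx-/- libraries.

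The MRFs and the contractile genes were highest and lowest in the same Mkx-/- libraries. A list of 34 contractile and fibre genes summed to 576, 149 and 386 CPM in WT replicates 1, 2 and 3, and to 3870, 1890 and 817 CPM in Mkx-/- replicates 1, 2 and 3. The 4 MRFs together had 1 count in each WT library and 19, 15 and 6 counts in the 3 Mkx-/- libraries. Within the Mkx-/- group both were highest in replicate 1 and lowest in replicate 3, as were *Myf6* and *Myod1* each. Between the groups, the summed normalized level of the contractile genes differed 5.45-fold and that of the MRFs 12.5-fold, the latter with an interval for counting error of 3.98 to 63.1. The contractile difference was 3.54-fold without Mkx-/- replicate 1.
Per 10000 counts of the contractile list, the MRFs had 4.50, 5.58 and 5.82 counts in Mkx-/- tendons, and 1.37, 6.60 and 2.08 in WT tendons, where each value rests on 1 count. Over the groups this was 5.04 (exact 95% binomial interval 3.60 to 6.86) in Mkx-/- and 2.20 (0.454 to 6.43) in WT tendons. The ratio of the groups was 2.29, with an interval of 0.730 to 11.6. Counts were summed over the libraries of a group first, so these intervals cover counting error only and not the spread between libraries. A change of the MRFs beyond that of the contractile genes was therefore not detectable at this depth.

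**Figure D3:**
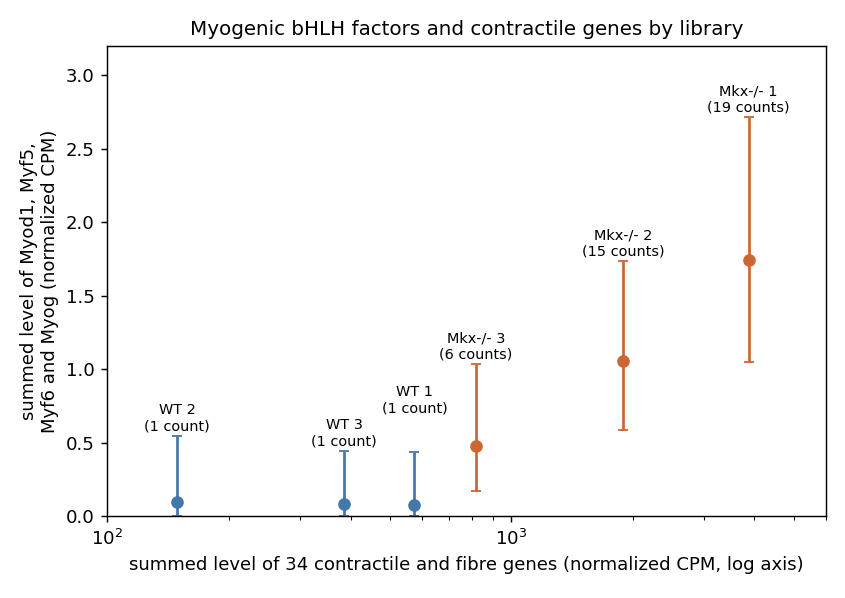
Summed normalized CPM of *Myod1*, *Myf5*, *Myf6* and *Myog* (y axis) against that of 34 contractile and fibre genes (x axis, log scale), 1 point per library, with exact 95% Poisson intervals of the counts as bars. The 3 WT libraries have 1 count each, and the Mkx-/- libraries with 6, 15 and 19 counts lie in the same order on both axes.

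Of the 34 contractile and fibre genes, 33 were higher in Mkx-/- tendons and 12 were called upregulated (35.3%, against 1.89% of all tested genes), with 0 downregulated by edgeR or DESeq2. The median log2 fold change was 2.80, against -0.0037 over all tested genes, and 0 genes of the list were lower at an unadjusted p under 0.05. Some of the 34, such as *Tnni1* and *Myoz1*, had few counts in WT and could be tested only through their Mkx-/- counts. The share called and the median rest partly on such genes. In the fit with at least 10 counts in every library, 7 were called and the median of the list was 2.78. *Casq1*, the calcium buffer of the sarcoplasmic reticulum, averaged 6.55 ± 2.93 CPM in WT against 43.8 ± 29.8 CPM in Mkx-/- libraries, with a difference of 2.72 on the log2 scale (SD, n = 3 each, edgeR adjusted p = 0.0287). The Z-disc genes *Ldb3* and *Tcap*, the muscle enolase *Eno3* and fast troponin *Tnnt3* were called with log2 fold changes of 2.87, 2.88, 1.19 and 3.02. *Ldb3* had 43, 8 and 44 counts in WT and *Tcap* 24, 3 and 11, so both passed the filter only through their Mkx-/- counts. *Acta1*, *Myh1* and the calcium pump *Atp2a1* had the highest CPM, and were not called at 3.04, 2.45 and 2.93 on the log2 scale (edgeR adjusted p = 0.0727, 0.124 and 0.0999). The number called changed with the library left out. It was 0 without WT replicate 2, 0 without WT replicate 3 and 25 without WT replicate 1. It was 2 without Mkx-/- replicate 1 and 3 without Mkx-/- replicate 2. Over all tested genes, the upregulated number went from 275 to 119 without WT replicate 2 and to 103 without WT replicate 3. The median log2 fold change of the list was 2.37 and 2.72 in those fits. The cause of the lost calls was not tested. DESeq2 called 20 of the list.

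Promoter windows are shown for 3 of these genes, since E-boxes and MEF2 sites are the sequences through which these factors act on muscle genes. RefSeq windows matched 27 of the 34 genes. The sequence CAGCTG, the E-box form that MRFs prefer, which also counts as CANNTG, was present in 15 of their 33 windows of 250 bases (45.5%), against 13.0% of all windows. The MEF2 consensus was searched on both strands as YTAWWWWTAR, where Y is C or T, W is A or T and R is A or G. It was present in 5 windows of the list (15.2%) against 2.92% of all windows. Of the 6 windows of the members themselves, 0 held CAGCTG or the MEF2 consensus in this form and 3 held CANNTG. The *Myog* window above holds ctatatttat, which departs from this form in the last base only. Sites outside the form were not counted, so the members' windows cannot be said to lack MEF2 sites. These are matches of letters and were not measured as bound sites. In the windows below, from chr8:123894776-123895025 on the minus strand, chr1:172219896-172220145 on the minus strand and chr11:67199852-67200101 on the plus strand of GRCm38.p6, capitals mark CANNTG and the MEF2 consensus. In *Acta1* the CAGCTG lies 215 bases and in *Casq1* 189 bases before the start, and in *Myh1* the MEF2 consensus lies 201 bases before it.
Acta1: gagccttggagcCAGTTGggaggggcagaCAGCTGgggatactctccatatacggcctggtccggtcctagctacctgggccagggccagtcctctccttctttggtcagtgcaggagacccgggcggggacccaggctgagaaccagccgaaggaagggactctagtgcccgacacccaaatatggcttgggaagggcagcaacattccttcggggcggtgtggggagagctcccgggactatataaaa
Casq1: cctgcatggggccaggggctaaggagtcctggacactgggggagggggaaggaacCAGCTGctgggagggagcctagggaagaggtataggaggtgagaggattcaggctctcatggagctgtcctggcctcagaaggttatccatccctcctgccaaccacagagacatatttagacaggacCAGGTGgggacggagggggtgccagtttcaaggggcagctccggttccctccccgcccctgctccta
Myh1: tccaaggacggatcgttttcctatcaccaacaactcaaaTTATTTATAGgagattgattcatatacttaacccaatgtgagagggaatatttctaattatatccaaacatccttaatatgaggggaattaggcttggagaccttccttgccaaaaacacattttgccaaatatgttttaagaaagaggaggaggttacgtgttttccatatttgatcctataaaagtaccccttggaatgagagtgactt

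Genes that act beside the members in muscle formation were divided by role into 7 lists with 80 genes. Of these, 58 could be tested, 5 were upregulated (8.62%) and 2 were downregulated (3.45%), against 1.89% and 1.33% of all tested genes. Their median log2 fold change was 0.01, with 29 higher and 29 lower. Some of the 58, such as *Rbm24*, *Mstn* and *Smyd1*, had few counts in WT and could be tested only through their Mkx-/- counts. The upregulated genes were *Rbm24*, *Chrnb1*, *Mustn1*, *Mstn* and *Snai2*, and the downregulated genes were *Met* and *Fgfr4*. The number of upregulated genes was 0 without WT replicate 2, 1 without WT replicate 3, 2 without Mkx-/- replicate 2, 3 without Mkx-/- replicate 3, 8 without WT replicate 1 and 8 with DESeq2.

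**Figure D4:**
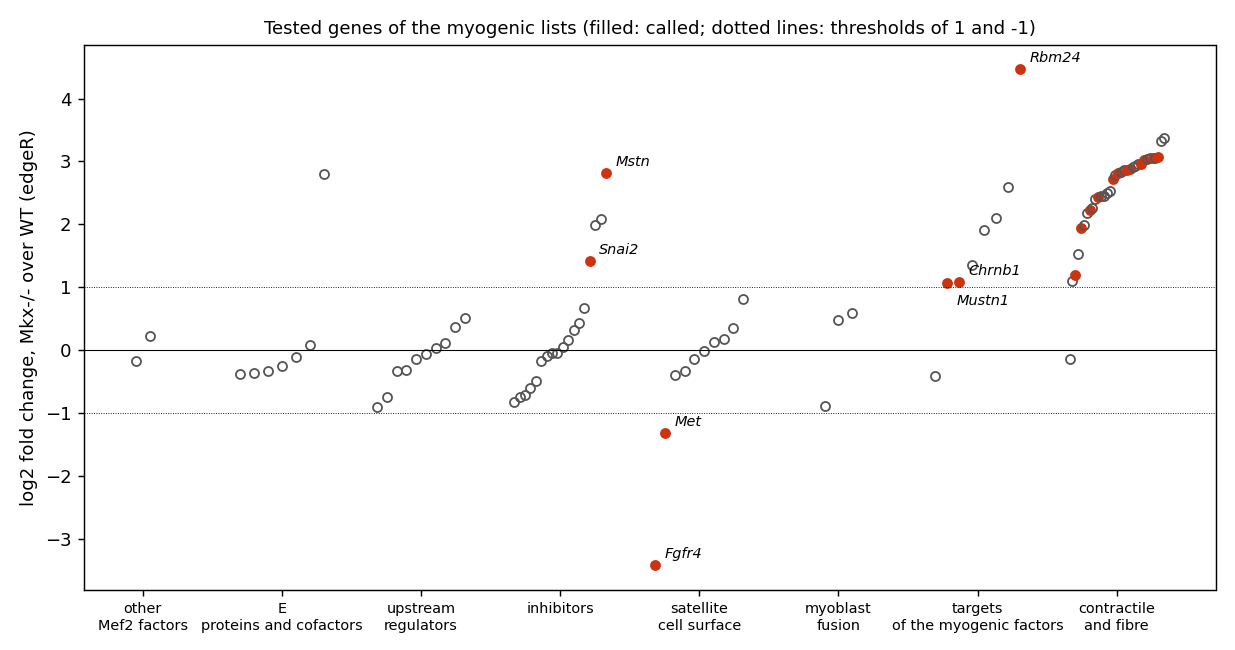
Log2 fold changes (y axis, Mkx-/- over WT, edgeR) of the tested genes of each list (x axis), with called genes filled. The upstream regulators and E proteins other than *Smyd1* lie within 1 of 0, and the contractile and target genes lie mostly above 1.

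Of 7 E proteins and cofactors, 0 were called by edgeR and 1 was called by DESeq2, *Smyd1*. At an unadjusted p under 0.05 in edgeR, 1 was higher and 1 lower, against 22.6% of all tested genes in either direction. The E protein gene *Tcf12* averaged 99.7 ± 8.28 CPM for WT against 79.2 ± 9.13 CPM for Mkx-/- (SD, n = 3 each), and *Tcf4* 91.7 ± 3.39 against 77.0 ± 8.49 CPM. *Smyd1*, a methyltransferase of striated muscle and itself muscle-restricted, had 8, 0 and 7 counts in WT and 56, 34 and 19 counts in Mkx-/- libraries. Its groups did not overlap, its Mkx-/- libraries ranked as those of *Myf6*, and it differed by 2.81 on the log2 scale (edgeR adjusted p = 0.0654).
Of 17 upstream regulators, 10 could be tested and 0 were called by edgeR or DESeq2. At an unadjusted p under 0.05 in edgeR, 2 were higher and 2 lower, against 22.6% of all tested genes in either direction. *Lbx1*, a factor of migrating limb muscle progenitors, and *Tcf21* had 0 counts in all libraries. *Eya2*, a transcriptional coactivator, stood at 61.6 ± 10.5 CPM in WT and at 63.2 ± 10.2 CPM in Mkx-/- libraries (SD, n = 3 each). *Eya1*, *Eya4* and *Meox2* passed the adjusted p but not the fold threshold, at -0.75, -0.90 and 0.51 on the log2 scale (edgeR adjusted p = 0.0237, 0.0241 and 0.0417).

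Among 18 inhibitors of myogenesis, 2 were upregulated (11.1%, against 1.89% of all tested genes) and 0 downregulated in edgeR, and DESeq2 called 3 and 0. The list as a whole was split, with 9 higher and 9 lower and a median log2 fold change of 0.0041. At an unadjusted p under 0.05 in edgeR, 5 were higher and 2 lower, the latter being *Twist2* and *Id3* at -0.75 and -0.72 on the log2 scale. *Mstn*, the muscle-derived growth inhibitor myostatin, had 4, 3 and 6 counts in WT and 11, 55 and 37 counts in Mkx-/- libraries. The groups did not overlap, but unlike *Myf6* the lowest Mkx-/- count was that of replicate 1. The difference was 2.81 ± 0.57 SE on the log2 scale (edgeR adjusted p = 0.0294), and it was not called without WT replicates 2 or 3 or Mkx-/- replicates 2 or 3. *Snai2*, a repressor of mesenchymal cells that competes for E-boxes, rose from 2.69 ± 0.620 to 7.16 ± 1.39 CPM (SD, n = 3 each), or by 1.41 on the log2 scale (edgeR adjusted p = 0.0194). It was not called without WT replicate 2 or Mkx-/- replicates 2 or 3. The MEF2 corepressor genes *Hdac5* and *Hdac7* were not called, at 0.05 and 0.31 on the log2 scale (edgeR adjusted p = 0.900 and 0.211).

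Of 12 surface markers of satellite cells, 10 could be tested, 0 were upregulated by edgeR or DESeq2 and 2 were downregulated by both. In edgeR the 2 were 20% of those tested, against 1.33% of all tested genes, and 4 of the list were higher and 6 lower. *Cdh15*, M-cadherin, had 0, 0 and 1 counts in WT and 2, 5 and 3 counts in Mkx-/- libraries, and *Calcr*, a receptor of quiescent satellite cells, had 0 counts in all libraries. Among the other markers, which are shared with other cells, levels differed widely, from *Megf10* with 2 to 17 counts per library to *Sdc3* at 380 ± 147 and 377 ± 81.8 CPM in WT and Mkx-/- libraries (SD, n = 3 each). *Cd34* stood at 176 ± 22.3 and 226 ± 20.7 CPM. *Fgfr4*, a receptor for fibroblast growth factors, had 340, 438 and 689 counts in WT and 60, 36 and 48 counts in Mkx-/- libraries. It fell by 3.42 ± 0.34 SE on the log2 scale (edgeR adjusted p = 0.00173). *Met*, the receptor for hepatocyte growth factor, fell from 88.8 ± 12.5 to 35.6 ± 4.73 CPM (SD, n = 3 each, log2 fold change -1.32, edgeR adjusted p = 0.00330). These were the only genes of the 7 lists that were called in each of the 14 alternative settings.

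Of 6 fusion genes, 3 could be tested and 0 were called by edgeR or DESeq2. At an unadjusted p under 0.05 in edgeR, 1 was higher and 1 lower, against 22.6% of all tested genes in either direction. The muscle-specific fusogens had few counts, with 3, 3 and 0 in WT and 12, 7 and 6 in Mkx-/- libraries for *Tmem8c* (myomaker). *Gm7325* (myomixer) had 0 in WT and 1, 1 and 0 in Mkx-/- libraries. The *Tmem8c* groups did not overlap, and its log2 estimate was 1.93 in the fit that kept every counted gene (edgeR adjusted p = 0.214). The hedgehog co-receptor genes *Cdon* and *Boc*, which promote myoblast differentiation, had 1055 to 2968 counts in every library and were not called, at -0.89 and 0.48 on the log2 scale (edgeR adjusted p = 0.0252 and 0.163).

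Of 17 genes listed here as targets of the MRFs, 8 could be tested. Of these, 3 were upregulated (37.5%, against 1.89% of all tested genes) and 0 downregulated by edgeR, and DESeq2 called 4 and 0. The median log2 fold change of these 8 was 1.63, and 0 were lower at an unadjusted p under 0.05. Some of them, such as *Rbm24*, passed the filter only through their Mkx-/- counts. The median and the calls therefore describe the genes that passed and not all 17. *Rbm24*, an RNA-binding regulator of muscle splicing, had 2, 0 and 1 counts in WT and 35, 27 and 15 counts in Mkx-/- libraries (log2 fold change 4.46, edgeR adjusted p = 0.0122, not called without WT replicate 2 or without WT replicate 3, with a range over the alternatives of 0.000213 to 0.0660). *Chrnb1*, the acetylcholine receptor beta subunit, rose from 3.94 ± 0.575 to 8.32 ± 1.84 CPM, and *Mustn1* from 15.7 ± 2.64 to 32.7 ± 9.80 CPM (SD, n = 3 each). These differences were 1.08 and 1.06 on the log2 scale (edgeR adjusted p = 0.0323 and 0.0362), and *Chrnb1* was called without WT replicate 1 only among the fits that left out a library. *Mustn1* was called in the fits without WT replicate 1 or Mkx-/- replicate 1. Its levels in Mkx-/- replicates 1, 2 and 3 were 24.1, 30.6 and 43.4 CPM, the reverse of the order of *Myf6*.
*Des*, the intermediate filament of muscle, had 116, 9 and 68 counts in WT and 578, 383 and 200 counts in Mkx-/- libraries, ranking its Mkx-/- libraries as *Myf6* did (log2 fold change 2.59, edgeR adjusted p = 0.0584). *Vgll2*, a cofactor of TEAD factors in muscle, had 1, 0 and 1 counts in WT and 20, 21 and 5 counts in Mkx-/- libraries, and *Lmod3*, which builds actin filaments, had 1, 0 and 1 against 22, 16 and 7 counts. Both were called when every counted gene was kept, at 4.23 and 4.22 on the log2 scale (edgeR adjusted p = 0.00316 and 0.00263). Among the other targets that could be tested only in that fit, *Actc1* was called at 2.72 (edgeR adjusted p = 0.0104). *Tnnt2*, *Cav3*, *Chrna1*, *Chrng* and *Chrne* were not called there (edgeR adjusted p = 0.245 to 0.99). Of the other acetylcholine receptor subunits, *Chrnd* had 0 counts in all libraries, and both the immature subunit *Chrng* (0 to 2 counts) and the adult subunit *Chrne* (0 or 1) were near 0 in both groups. *Musk*, a receptor kinase of the neuromuscular junction, had 314, 132 and 204 counts in WT and 141, 266 and 113 counts in Mkx-/- libraries, which overlapped (edgeR adjusted p = 0.474).

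Likeness was measured over 10294 genes whose mean was 5 CPM or more. Those most like the summed MRF level over the 6 libraries were *Wdr49*, *Sh3rf3*, *Myo10*, *AW551984* and *Naca*, with Pearson's r between log2 CPM and the summed MRF CPM of 0.99, 0.99, 0.98, 0.98 and 0.98. These values are a description over 6 libraries that share their genotype groups. *Naca* has a muscle-specific isoform, which gene counts do not separate. The genes most like *Mef2c* were *Nrf1*, *Mettl3*, *Zfp1*, *Rsl24d1* and *Ttll5*, with r of 0.98, 0.97, 0.96, 0.96 and 0.95, all with narrow ranges, such as 14.5 to 17.8 CPM for *Nrf1*. None of these genes is in the contractile list. The summed MRF level was not put on the log2 scale, unlike that of *Mef2c*. A gene that rose in proportion to the MRFs could therefore rank lower, and no conclusion about the contractile genes is drawn from this ranking.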

How the data were processed

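Per the labels and the study's methods, tail tendons were minced, RNA was extracted with Trizol, and libraries from the Ion Total RNA-Seq Kit were read on an Ion Proton. After trimming and quality filtering, the authors aligned reads to mm9 with MapSplice and deposited raw counts per gene symbol. How reads were counted, with which annotation, and how strand and multiply mapped reads were handled are not given in the sources used here, so counts of paralogs are uncertain. The 6 columns matched the titles, and 0 were left unused.

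Here the counts were fitted with edgeR 4.0.16 in R 4.3.3 (TMM, filterByExpr, quasi-likelihood test on genotype, 3 libraries per group), and with DESeq2 1.42.0 as an alternative. The fit was tested on simulated data. Intervals of count ratios are exact conditional binomial intervals. Exon lengths are those of GENCODE on mm9. The members and lists were chosen with earlier results of these data known. Named were the members, *Mkx*, up to 5 called genes and the 3 with the highest CPM in each list, and the 5 most like genes. Other genes were named after their values were seen. Alternatives were 3 scalings, 2 filters, a robust fit, DESeq2, the replicate block and each library left out.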

Additional observations from a re-analysis of the deposited data

How the results depend on the processing

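No regulator that could be fitted was called under any of the 14 alternatives. *Mef2c* was fitted in each of them, *Pax3* in 5 fits without 1 library each, and all 7 regulators only when every counted gene was kept. The log2 fold change of *Mef2c* ranged from 0.0067 (without Mkx-/- replicate 1) to 0.34 (library size only). Scaling by library size alone moved the median of all genes to 0.25. Over the 19 called genes of the lists, 178 of 259 values kept their call, 81 were no longer past the thresholds and 0 changed direction. The counts of all genes called upregulated and downregulated, 275 and 193, were 541 and 322 with every counted gene kept, and 711 upregulated with library size only. Leaving out a library gave 103 to 321 upregulated and 112 to 248 downregulated genes, with over 1.5 times fewer upregulated without WT replicates 2 or 3 or Mkx-/- replicates 2 or 3. The 5 upregulated genes of the 7 lists became 9 with library size only, 14 with every counted gene, 3 with at least 10 counts in every library and 8 with DESeq2, and 0 to 8 without a library. The 12 upregulated contractile genes became 25, 31, 7 and 20 under the same settings, 3 with the robust fit, and 0 to 25 without a library. The cause of these moves was not tested.

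The *Myod1* ratio had no value without WT replicate 2, when the WT count is 0, and otherwise ran from 7.19 to 15.5 when a library was left out. That of *Myf6* ran from 7.14 to 15.5, that of *Pax3* from 0.693 to 1.16 and that of the 4 MRFs from 9.09 to 15.9. The contractile ratio was 6.51 with library size only and 3.54 to 7.51 without a library. The replicate numbers did not pair the libraries, with correlations of same-numbered deviations of 0.026, -0.21 and 0.30. With the replicate block, 3 genes of the 7 lists and 9 contractile genes were upregulated, and *Mef2c* had a log2 fold change of 0.096. Counts of 10 or fewer per library leave *Myod1*, *Myf5*, *Myog*, *Pax7* and most values of *Myf6* and *Pax3* with a large counting error.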

Other observations

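Slow-fibre genes ran in another order among the Mkx-/- libraries than fast-fibre genes. *Myh7*, the slow myosin, had 2.11, 1.62 and 13.0 CPM in Mkx-/- replicates 1, 2 and 3 and 0.196 to 0.881 CPM in WT, and slow troponin *Tnni1* had 1.74, 2.88 and 5.87 CPM against 0.481 to 0.883 CPM. *Myh4*, a fast myosin, had 260, 37.4 and 28.4 CPM in the same Mkx-/- libraries. Replicate 3, with the highest *Myh7* and the lowest *Myh4* of the group, was also the only library with counts of *Myog*. These genes were chosen after their values were seen, and the order was not tested.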
